A study of Mus musculus with 2 samples.

Results

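The genes described here build the actin cytoskeleton and its contractile apparatus: the actins, the myosin II motor and its activating kinase, tropomyosins, calponins and transgelins, crosslinking and focal adhesion proteins, and the transcription factor SRF with its cofactors. They were chosen by name, with earlier results of these data known, as 38 listed gene symbols among the 21983 entries of the deposited count table. All 38 were found, with the SRF cofactors MRTF-A and MRTF-B under their older symbols Mkl1 and Mkl2, and 36 of them had at least 20 counts summed over both libraries. Primary chondrocytes from wild-type mice, the cells that make cartilage, were grown in serum-containing medium and sampled after 3 days with either PBS (the control) or recombinant mouse Sparcl1 protein at 50 ng/ml. Sparcl1 is a secreted matricellular protein of the SPARC family. RNA sequencing gave 1 library for each condition, so no difference below has a replicate check, no test across libraries was possible and no p-value is given. The labels do not say how many animals or cultures went into a library.

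Contractile force in non-muscle cells comes from bundles of actin filaments pulled by myosin II and anchored at focal adhesions, where talin and vinculin couple them to integrins. Monomeric actin holds the cofactors MRTF-A and MRTF-B in the cytoplasm. When actin is assembled into filaments, the cofactors are freed to enter the nucleus and, with SRF, to drive genes such as Acta2, Tagln, Cnn1 and Vcl through a DNA element called the CArG box. In cultured chondrocytes, spreading and stress fibre formation are known to accompany loss of the rounded cartilage phenotype.

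The control library held 29858851 counts and the Sparcl1-treated library 26871933, and 15497 and 15407 genes had at least 1 count. All 10 chondrocyte markers were detected in both libraries, led by Col2a1 with 254556 and 199410 counts. Fibroblast and macrophage markers were present as well, with Col1a1 at 242065 and 171600 counts and the macrophage receptor gene Csf1r at 10176 and 9091. In such bulk libraries, fewer cells of a type and less RNA per cell cannot be told apart.

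Of the 36 measured genes, 5 (13.9%) were lower with Sparcl1 than in the control by at least 0.32 on the log2 scale with a counting interval that excludes 0, as were 5.77% of all genes. Of these, 4 are best known from smooth muscle (Acta2, Tagln, Cnn1 and Lmod1). Other smooth muscle genes of the set, Actg2, Myh11 and Smtn, were not among them. The counting intervals of Actg2 (-0.51 to 0.29) and Myh11 (-1.22 to 1.05) hold the Cnn1 log2 ratio of -0.42, so their counts cannot exclude a like difference. Acta2, smooth muscle alpha-actin, stood at 832 CPM (reads of the gene scaled to a common library size) in the control and 529 CPM with Sparcl1, a 1.57-fold lower level. Lmod1, leiomodin 1, which starts actin filaments in smooth muscle, was 1.55-fold lower. Tagln, the actin-binding protein transgelin or SM22, was 1.43-fold lower, Cnn1, the smooth muscle calponin, 1.34-fold lower. Vcl, vinculin, was lower by a log2 ratio of -0.32. By contrast Actb, cytoplasmic beta-actin, differed by a log2 ratio of only -0.04, and Tagln2, the broadly expressed transgelin, had a log2 ratio of 0.22.

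Ratios are given as log2 of CPM with Sparcl1 over CPM in the control, each with an exact 95% Clopper-Pearson interval that covers counting error only. Differences were sorted by a large step of 2-fold and a small step of 0.32 on the log2 scale, each together with an interval that excludes 0. The small step was chosen because earlier results of these data had shown ratios of this set under 2-fold, so it is not independent of the values. Below, higher and lower in a count mean past the small step. No member passed 2-fold in either direction. The background among the 13317 genes with enough counts was 0.954% past 2-fold upwards and 0.946% downwards. At the small step, 5 of the 36 measured members (13.9%) were lower and none was higher, against 5.77% of all genes lower and 5.97% higher. The 5 were Acta2, Lmod1, Tagln, Cnn1 and Vcl. Vcl, at -0.32 (interval -0.37 to -0.28), was just inside the step and Tpm1, at -0.31 (-0.34 to -0.27), just outside it. Vcl was no longer inside with total counts as library sizes (-0.29) or with smooth trends on exon length and GC content removed (-0.28). The members are mostly abundant genes, which scatter less than rare ones. Of 29 members with at least 2000 summed counts, 3 were lower (10.3%) and none was higher. Among 5702 genes of that abundance 2.67% were lower and 2.44% higher. This cut on counts was chosen after the data were seen.

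The median log2 ratio over the 36 measured members was -0.12, beside -0.0019 over all genes. Of these ratios 26 lay below 0 and 10 above, and the intervals of 22 (61.1%) lay wholly below 0 and those of 5 (13.9%) wholly above. Over all genes 21.6% of intervals lay below 0 and 20.1% above, and over genes with at least 2000 summed counts 31.3% and 24.7%. The members together took 1.61% of control reads and 1.47% of Sparcl1 reads. Counting error is small for such abundant genes, and the spread between cultures is not measured by these libraries.

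**Figure D1:**
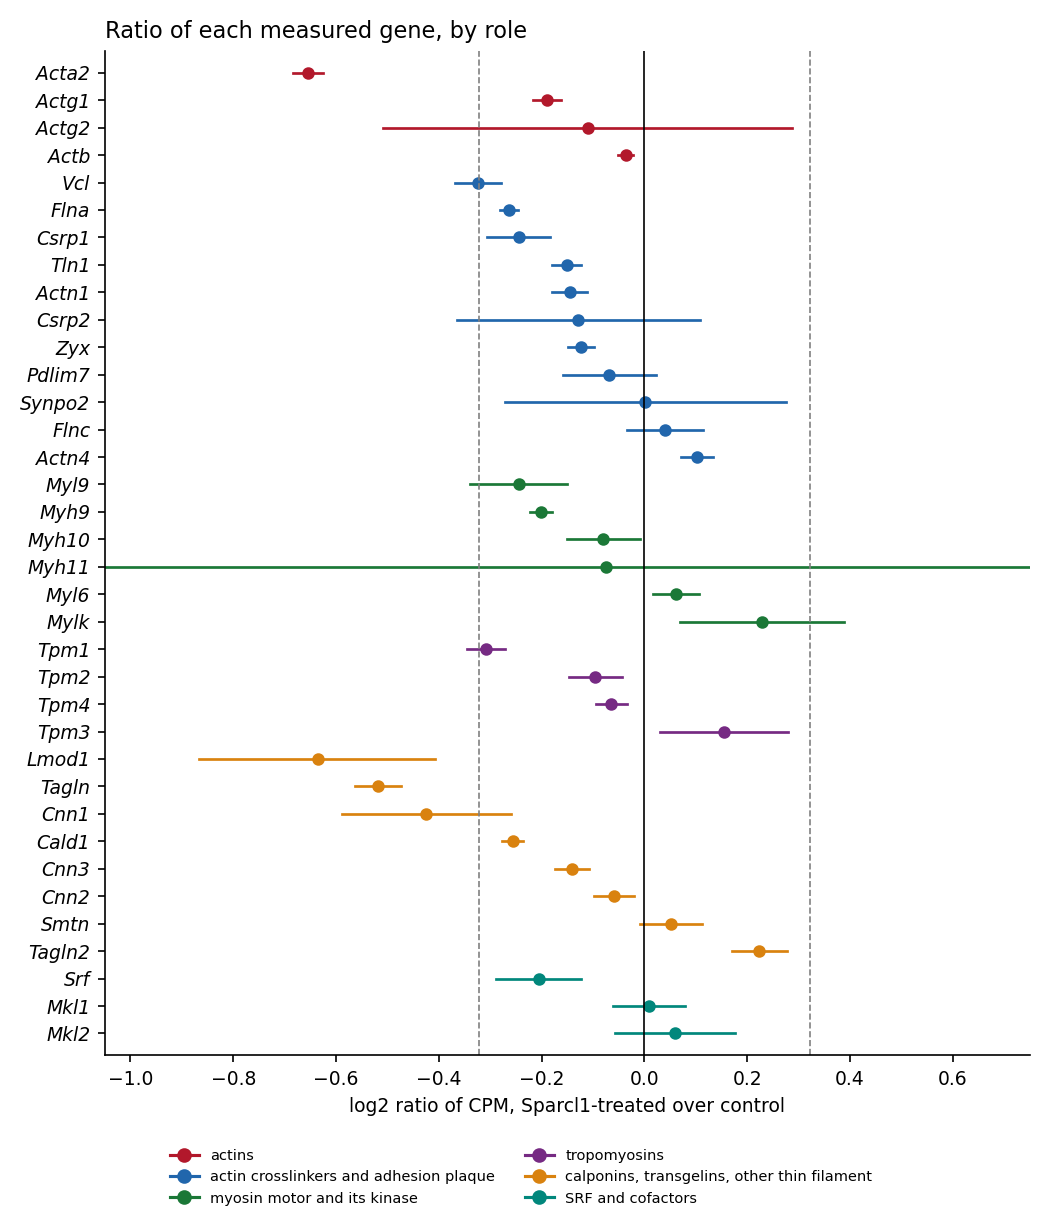
Log2 ratio of CPM, Sparcl1-treated over control (x axis), for the 36 measured genes, coloured by role. Points are ratios, horizontal lines are exact 95% counting intervals (that of Myh11 runs past both edges), and dashed lines mark the small step of 0.32. Acta2, Lmod1, Tagln, Cnn1 and Vcl lie beyond the left dashed line, and no gene lies beyond the right one.

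Since SRF acts through CArG boxes, the promoter windows of the members are shown with those boxes. RefSeq windows on GRCm38.p6, from 250 bases before to 50 bases after each annotated start, matched 32 of the 38 members. The members without a window were Actb, Actg2, Csrp2, Myh11, Tagln and Myocd. The CArG consensus, CC followed by 6 bases that are each A or T and then GG, was searched on both strands, on which it reads alike. It was found in 6 of the 32 members (18.8%) and in 1.81% of all 27025 genes with a RefSeq window. By window, these were 6 of 40 windows of members and 1.63% of all 32851 windows. The 6 were Actg1, Cnn2, Myl6, Myl9, Srf and Vcl. Upstream stretches of 5 of them follow, chosen because they hold consensus boxes and lie outside annotated exons, written from 5′ to 3′ with boxes in capitals. The stretch of Actg1 is chr11:120348551-120348610 (minus strand), that of Cnn2 chr10:79988519-79988578 (plus), that of Myl9 chr2:156775278-156775399 (plus), that of Srf chr17:46556190-46556269 (minus) and that of Vcl chr14:20929148-20929205 (plus).
Actg1: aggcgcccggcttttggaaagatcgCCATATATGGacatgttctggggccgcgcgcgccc
Cnn2: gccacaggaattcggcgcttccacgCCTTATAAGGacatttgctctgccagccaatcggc
Myl9: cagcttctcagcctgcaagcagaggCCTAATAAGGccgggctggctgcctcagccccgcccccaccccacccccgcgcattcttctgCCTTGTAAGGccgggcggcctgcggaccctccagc
Srf: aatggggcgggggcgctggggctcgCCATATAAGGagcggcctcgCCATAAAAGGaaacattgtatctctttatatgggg
Vcl: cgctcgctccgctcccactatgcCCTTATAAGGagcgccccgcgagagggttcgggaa

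The second capitalised box of Myl9 differs from the consensus at 1 base. Srf carries a pair of consensus boxes, 82 and 62 bases before its start, and its own gene is a known SRF target. With 1 mismatch allowed among the 6 inner bases, 10 of 32 members had a match (31.3%). So had 11.3% of all genes with a RefSeq window and 9.98% of all windows. Acta2 was among the added members, with CCCTATATGG at 84 bases and CCTTGTTTGG at 34 bases before the RefSeq start. The 6 members with a consensus box had ratios from -0.32 to 0.06 and a median of -0.20. The 4 members whose only match had 1 mismatch (Acta2, Flnc, Mkl1 and Tpm3) ranged from -0.65 to 0.16 with a median of 0.02. The 21 measured members whose window held no match, even with 1 mismatch, ranged from -0.64 to 0.23 with a median of -0.12. The 3 ranges overlap widely, and Lmod1 and Cnn1, among the 5 lower genes, had no match in this window.

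Actins form the filaments themselves. Actb and Actg1 encode the cytoplasmic beta and gamma forms, and Acta2 and Actg2 the alpha and gamma forms of smooth muscle. Acta2 (chromosome 19, 34241090 to 34255590, minus strand) had 24554 counts in the control and 14385 with Sparcl1, which gives -0.65 (-0.68 to -0.62) as log2 ratio. Only 2.89% of all genes tested had a lower ratio. Actg1 had 24093 and 19479 counts (-0.19, -0.22 to -0.16), Actb had 76165 and 68471 (-0.04, -0.05 to -0.02), and Actg2 had 117 and 100 (-0.11, -0.51 to 0.29). The difference in Acta2 thus exceeded those of both cytoplasmic actins, and that of Actg2 was not detectable at this depth. Acta2 was the second most abundant member per length in the control, at 379 CPM per kb of exon, and the fourth with Sparcl1, at 241. Its place above Actg1 in the control, at 307, depends on the length used. The union of exons has 2196 bases for Acta2 and 2658 for Actg1, but their longest coding transcripts have 2035 and 1952. Actb led in both, at 964 and 940 CPM per kb.

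The 4 actin genes have similar coding sequences, from 81.5% to 88.6% identical at the base level, and many processed copies. Of all 50-base windows along the Actg1 transcript, 56.7% occur in a transcript of another gene, mostly pseudogenes, against 14.2% for Actb, 0.352% for Acta2 and none for Actg2. The counts of Actg1 are therefore uncertain where reads with several matches were dropped, while those of Acta2 rest almost wholly on unique sequence.

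Within the actin family, Acta2 made up 19.7% of reads in the control (exact 95% binomial interval 19.4 to 19.9%) and 14.0% with Sparcl1 (13.8 to 14.3%). Per kb of exon its share was 22.9% and 16.6%. The share of Actb per kb was 58.3% and 64.7%, and that of Actg1 18.6% and 18.5%. The striated muscle actin gene Acta1 had 23 and 20 counts. The cardiac actin gene Actc1 had 0 of 124952 and 0 of 102455 actin reads, which allows a share of up to 0.0024% and 0.00293% when a count of 0 is read as at most 3. The exact 95% binomial upper limits are 0.00295% and 0.0036%. Summed over the family, actin reads had a log2 ratio of -0.17 (-0.18 to -0.16).

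**Figure D2:**
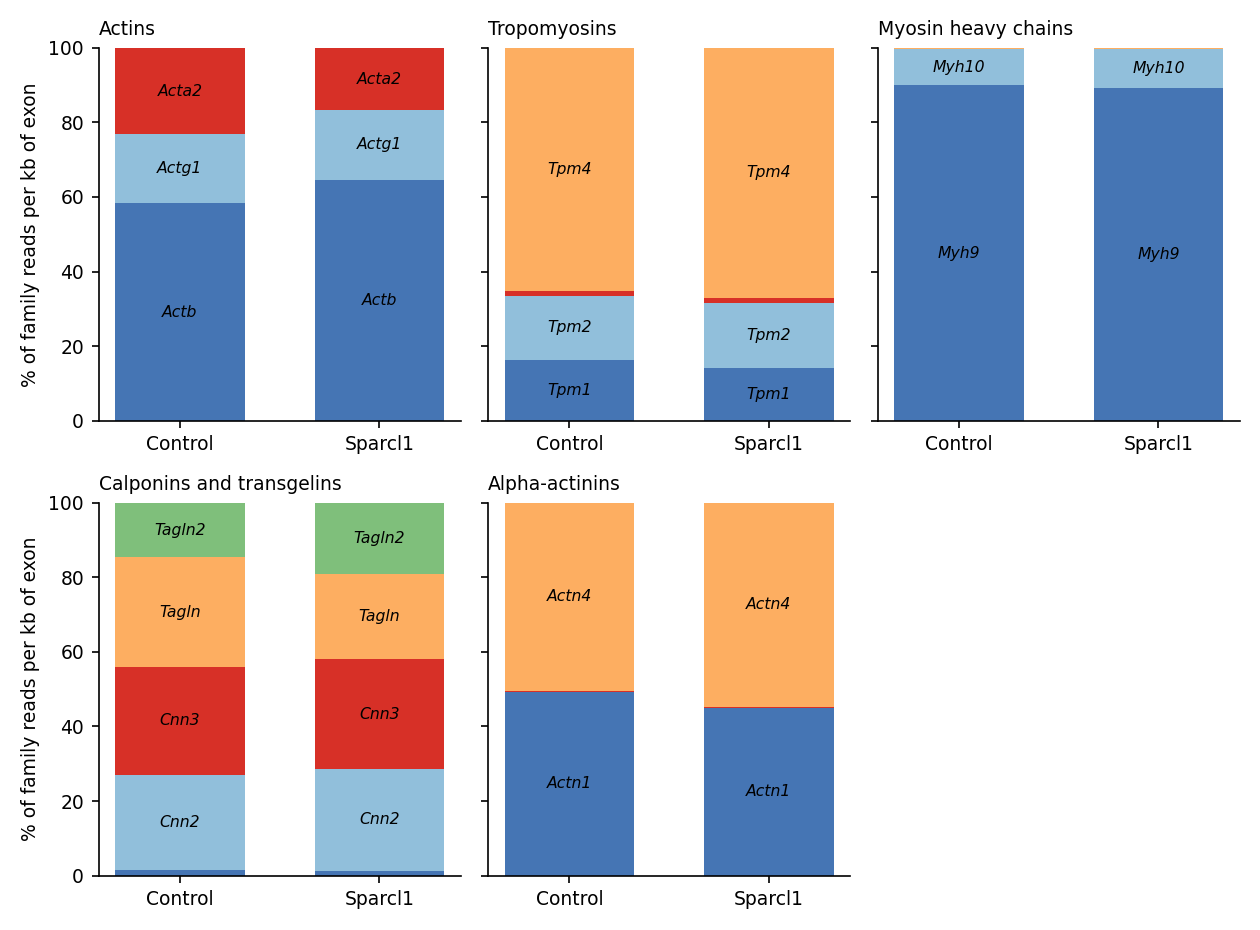
Share of each gene in its family, as percent of family reads per kb of exon (y axis), in the control and the Sparcl1-treated library. Segments are genes, and those under 3.5% carry no name. Acta2 went from 22.9% to 16.6% of actin and Tagln from 29.3% to 22.8% of calponins and transgelins, while the myosin heavy chains kept nearly the same proportions.

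Calponins, transgelins and caldesmon bind along actin filaments and tune how myosin engages them. Leiomodin, grouped with them here, starts filaments instead. This group held 3 of the 5 lower genes. Tagln (chromosome 9, 45929619 to 45936058, minus strand) had 10427 counts in the control and 6712 with Sparcl1 (-0.52, -0.56 to -0.47). Lmod1 (chromosome 1, 135324807 to 135368065, plus strand) had 423 and 251 (-0.64, -0.87 to -0.41), and Cnn1 (chromosome 9, 22099216 to 22109630, plus strand) 748 and 514 (-0.42, -0.59 to -0.26). Lmod1 and Cnn1 had few reads, so the size of their differences is less well fixed than that of Tagln. Cald1, caldesmon, had 42576 and 32864 counts and stood at -0.26 (-0.28 to -0.24), short of the small step. The broadly expressed calponins Cnn2 (11266 and 9966 counts) and Cnn3 (15738 and 13158) were at -0.06 and -0.14. Smtn, smoothelin, had 4536 and 4338 counts and a ratio of 0.05 (-0.01 to 0.11).

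Tagln2 went the other way from Tagln. Its counts were 5468 and 5888 (0.22, 0.17 to 0.28). Per kb of exon, Tagln was at 178 CPM and Tagln2 at 89.0 in the control, and they were at 124 and 104 with Sparcl1. Among calponins and transgelins the share of Tagln per kb was 29.3% in the control and 22.8% with Sparcl1, and that of Tagln2 14.7% and 19.1%. Exons of other genes cover 67.9% of the exon bases of Tagln on the opposite strand, namely those of the antisense gene Gm48529 and of Pcsk7, a protein convertase. Of the 50-base windows of the Tagln transcript, 44.5% also occur in Gm48529 and 3.82% in Pcsk7. The sources used here do not give the strand setting of the counting, so reads of Tagln and of these partners may not be separated. Pcsk7, the smaller of these overlaps, had 1246 and 1139 counts and a ratio of -0.01, with an interval of -0.13 to 0.10, while Gm48529 was not analysed here.

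The myosin II motor consists of heavy chains with essential and regulatory light chains, and is switched on when its regulatory light chain is phosphorylated by myosin light chain kinase. Myh9, the main non-muscle heavy chain, had 39595 and 31770 counts (-0.20, -0.22 to -0.18). Myh10, the second non-muscle heavy chain, had 3441 and 3002 (-0.08, -0.15 to -0.01). The smooth muscle heavy chain Myh11 had only 16 and 14, too few to show a difference (-1.22 to 1.05). Myh9 made up 89.9% of the heavy chain family per kb of exon in the control and 89.2% with Sparcl1, so the mix of heavy chain transcripts was nearly the same. The regulatory light chain gene Myl9 had 2090 and 1627 counts (-0.24, -0.34 to -0.15), and the essential light chain gene Myl6 had 8150 and 7845 (0.06, 0.02 to 0.11). Mylk, the kinase, was the member with the highest ratio, at 621 and 671 counts (0.23, 0.07 to 0.39). Thus the kinase and its substrate Myl9 had ratios of opposite sign, neither past the small step.

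Tropomyosins are coiled-coil proteins that lie in the groove of the filament and select which myosins and severing proteins can bind. Tpm1, from which the main smooth muscle and stress fibre forms are made, had 13837 and 10308 counts (-0.31, -0.34 to -0.27). Tpm2 had 6532 and 5637 (-0.10, -0.15 to -0.04), and Tpm4, the most abundant per length, 18758 and 16543 (-0.06, -0.09 to -0.03). Tpm3 had 1050 and 1078 (0.16, 0.03 to 0.28). Tpm1 was therefore the tropomyosin with the lowest ratio, although it stopped short of the small step. The counts of Tpm3 are uncertain: 62.4% of the 50-base windows of its transcript also occur in the retrogene Tpm3-rs7, which had more counts than Tpm3 itself, 7245 and 7228. Tpm3-rs7 was at 0.11 (0.07 to 0.16), and the pair summed was at 0.12 (0.08 to 0.16).

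Crosslinkers and adhesion plaque proteins tie filaments to one another and to integrins. Vcl (chromosome 14, 20929398 to 21033676, plus strand) had 9375 and 6906 counts and was the only lower gene of the 11 in this group. Exons of Ap3m1, which encodes a vesicle coat subunit, cover 25.5% of its exon bases on the opposite strand, and Ap3m1 was at -0.07 (-0.17 to 0.02). Tln1, talin, the partner of vinculin, had 22587 and 18757 counts (-0.15, -0.18 to -0.12). Flna, filamin A, the most abundant crosslinker by reads, had 59927 and 46054 (-0.26, -0.28 to -0.25), while Flnc, the muscle filamin, had 3007 and 2850 (0.04, -0.03 to 0.11). The LIM domain gene Csrp1 had 4877 and 3795 counts (-0.24, -0.31 to -0.18). Its relative Csrp2, another marker of the smooth muscle lineage, had 326 and 275 (-0.13, -0.37 to 0.11).

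The alpha-actinins, which crosslink filaments in stress fibres, differed from each other. Actn1 had 15177 and 12651 counts (-0.15, -0.18 to -0.11) and Actn4 17207 and 17038 (0.10, 0.07 to 0.13). Summed, alpha-actinin reads were at -0.01 (-0.03 to 0.01), so the sum hid ratios of opposite sign. Zyx, zyxin, a sensor of strain in stress fibres, had 26980 and 22846 counts and stood at -0.12 (-0.15 to -0.10). Pdlim7, with 2120 and 1864 counts, was at -0.07 (-0.16 to 0.02), and Synpo2, an actin-bundling protein of muscle, with 234 and 216, at 0.00 (-0.27 to 0.27).

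**Figure D3:**
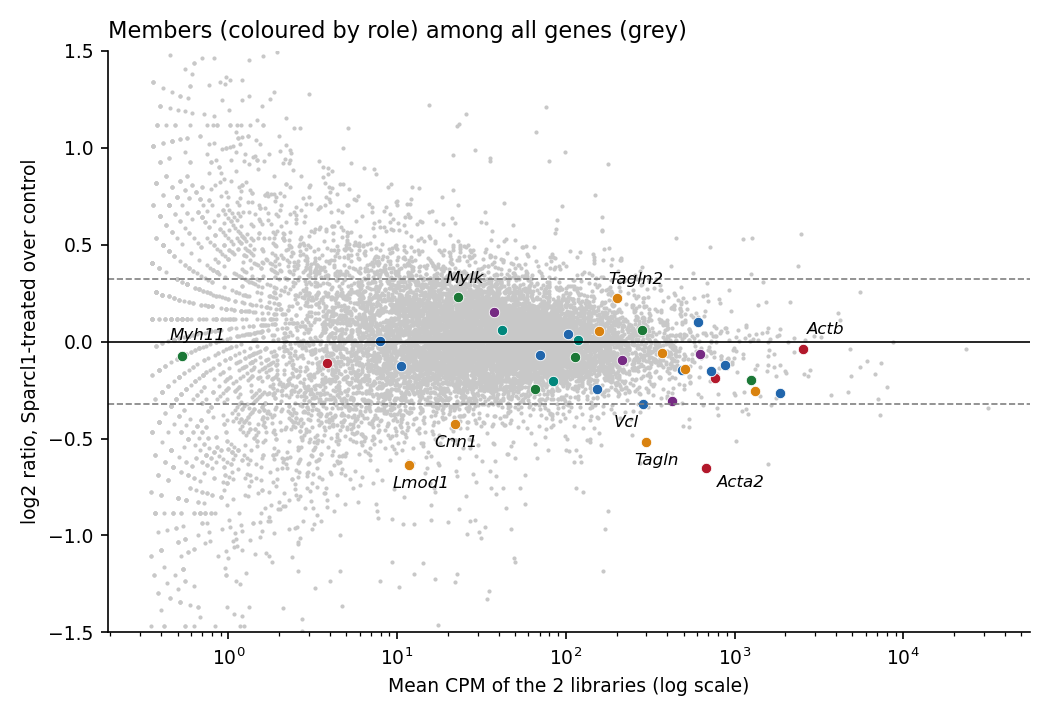
Log2 ratio, Sparcl1-treated over control (y axis), against mean CPM of the 2 libraries (x axis, log scale), for 13317 genes in grey, of which 105 lie outside the plotted range, and the measured members in the role colours of the ratio plot. Dashed lines mark the small step of 0.32. Acta2 and Tagln lie below the bulk of genes of like abundance, and Actb lies near 0 at the high end.

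None of the 3 measured genes for SRF and its cofactors passed the small step. Srf had 2654 and 2122 counts (-0.21, -0.29 to -0.12). Mkl1 had 3461 and 3211 (0.01, -0.06 to 0.08), and Mkl2 1206 and 1159 (0.06, -0.06 to 0.18), so neither MRTF gene differed beyond counting error. Their activity depends mainly on where the proteins are in the cell, which transcript counts do not measure. Myocd, myocardin, the smooth muscle and heart cofactor, had 13 and 4 counts, under the minimum, with an interval of -3.66 to 0.11. Des, desmin, the intermediate filament of muscle, had 3 and 6 counts and was also under it.

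The set thus joined abundant and nearly absent muscle-type genes in both libraries. Per kb of exon, Acta2 was at 379 CPM and Tagln at 178 in the control, whereas Actg2 was at 2.55, Myh11 at 0.0714 and Myocd at 0.0686. Genes of smooth muscle outside the set were also rare. The 10 listed summed to 75.7 CPM in the control and 76.9 with Sparcl1, and Kcnmb1 and Pln had no count in either library. Of the 6 with enough counts 2 were lower, Ramp1 (75 and 38 counts) and Rgs4 (928 and 673), and 1 was higher, Mustn1 (452 and 575). Over all genes 5.77% were lower and 5.97% higher. The median of the 6 was 0.10. Pericyte markers summed to 479 and 444 CPM, of which Pdgfrb held 331 and 306 and Cspg4 126 and 114. Of the 5 pericyte markers with enough counts 1 was lower, Rgs5 (145 and 89 counts, -0.59), and 1 was higher, Notch3 (383 and 465 counts, 0.40). Kcnj8 was at 0 in both libraries, Abcc9 had 0 and 1 counts and Higd1b 2 and 0. Skeletal muscle markers summed to 2.37 and 2.68 CPM, with Ckm, Myh8, Myod1 and Pax7 at 0.

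Genes of the same family, or partners in function, could be set against each other within a library, where the scaling between libraries cancels. Of 14 such pairs, 7 are given here. The log2 ratio of Acta2 was lower than that of Actb by a difference of -0.62 (95% interval from counts by the Woolf method -0.65 to -0.58). The difference was -0.74 (-0.81 to -0.67) for Tagln against Tagln2 and -0.36 (-0.53 to -0.20) for Cnn1 against Cnn2. It was -0.25 (-0.29 to -0.20) for Actn1 against Actn4, -0.24 (-0.29 to -0.20) for Tpm1 against Tpm4, and -0.30 (-0.38 to -0.23) for Flna against Flnc. In the first 3 pairs the smooth muscle form had the lower ratio, and in the filamin pair the muscle form, Flnc, had the higher one. For Mkl1 against Srf, partners that are not of the same family, the difference was 0.21 (0.11 to 0.32). The pairs were picked after their values were seen and are a description.

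Other genes of the actin system were counted in lists, beside a background of 5.97% of all genes higher and 5.77% lower. Of 21 measured further genes of the members' own families, 1 was lower and none was higher, with a median of 0.01. The lower gene was Myh14, the third non-muscle myosin heavy chain, with 94 and 61 counts (-0.51, -1.0 to -0.027). Pdlim5, an enigma family adaptor, was at -0.28 (12879 and 9762 counts), and Pdlim1 and Myl6b at 0.25 and 0.22. Of 42 actin dynamics genes, which cover nucleation, severing, capping and monomer binding, 1 was lower and 1 higher, with a median of -0.05. The lower gene was Tmsb4x, thymosin beta-4, the main store of monomeric actin, with 36756 and 26484 counts (-0.36, -0.38 to -0.33). The higher one was Capg, a capping protein abundant in macrophages, with 6711 and 7754 (0.33, 0.28 to 0.37). Lima1 was at -0.29 and the Arp2/3 subunit gene Arpc1b at 0.26.

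Of 26 other focal adhesion genes 3 were lower and 1 higher, with a median of -0.10. Nexn, an actin-binding protein of muscle, had 450 and 303 counts (-0.45, -0.67 to -0.24) and Sorbs2 4327 and 2927 (-0.45, -0.51 to -0.38). The third was Palld, palladin, a scaffold of stress fibres, with 11973 and 8814 (-0.32, -0.36 to -0.28), just past the small step, whereas the LIM protein genes Tes and Trip6 were at 0.35 and 0.32.

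Further targets known for MRTF and SRF had the lowest median of the pathway lists given here, -0.15 over 18 genes, with 2 lower and 1 higher. The lower genes were Nexn, counted above, and Thbs1, thrombospondin 1, with 1047168 and 760679 counts (-0.34, -0.35 to -0.34). Ankrd1 was the higher gene, from 199 and 243 counts (0.41, 0.13 to 0.68), and Hspb7 was at 0.30. The second branch of SRF targets, the immediate early genes driven with TCF factors, was split, with 2 of 9 lower and 2 higher. Egr3 had 427 and 164 counts and was lower by more than 2-fold (-1.26, -1.53 to -1.0), and Egr1 was at -0.60, while Junb and Ier3 were at 0.44 and 0.40. Among 10 measured cofactors and regulators of SRF, Mkl1 and Mkl2 included, none passed the small step, with Scai at -0.27, Tead1 at -0.25, Nkx3-2 at 0.27 and Elk3 at 0.29.

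**Figure D4:**
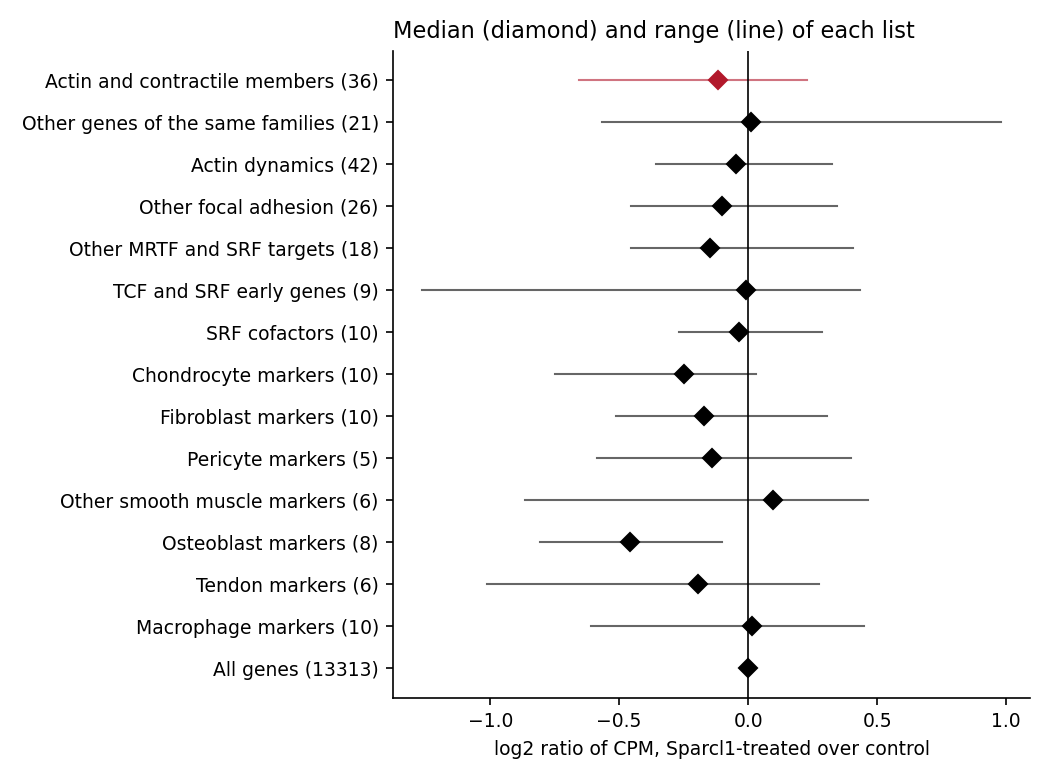
Median (diamond) and range (line) of the log2 ratios, Sparcl1-treated over control (x axis), for each list of genes given here, with the number measured in parentheses (all genes without 4 entries that share a symbol). The row of all genes has its median only. The members' median is -0.12, and the medians of the marker lists drawn run from -0.46 for osteoblast markers to 0.10 for other smooth muscle markers.

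Several markers of other mesenchymal cells were lower in the same library, where 5.77% of all genes were lower and 5.97% higher. Of 10 fibroblast and myofibroblast markers 2 were lower and none higher, with a median of -0.17 and summed levels of 30181 CPM in the control and 25371 with Sparcl1. The 2 were Postn, periostin, at -0.51 (35273 and 22815 counts) and Col1a1, the bone and fibroblast collagen, at -0.38. The fibroblast receptor gene Pdgfra was at 0.31. Of 8 osteoblast markers 4 were lower and none higher, Col1a1 again included, with a median of -0.46. Their sums were 8616 and 6595 CPM, of which Col1a1, shared with the fibroblast list, held 8206 and 6309. Chondrocyte markers were also lower in 4 of 10 cases, with a median of -0.25 and sums of 12553 and 11129 CPM. Macrophage markers had a median of 0.01 over 10, with 2 higher (Mrc1 and Itgam) and 1 lower (Fcgr1), and 5 ratios lay below 0 and 5 above. Their sums were 2248 and 2555 CPM, of which Lyz2 alone held 1327 and 1640, so the higher sum rested on that gene. Of 6 tendon markers 2 were lower, Tnmd (105 and 48 counts) and Egr1, already counted among the immediate early genes, and none was higher. Their median was -0.19, with 4 ratios below 0 and 2 above, those of Scx at 0.27 (0.13 to 0.42) and Mkx at 0.12. Endothelial markers summed to only 7.80 and 5.18 CPM. The part of these cell types in the ratios of the contractile genes was not tested.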

How the data were processed

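The authors deposited whole-number read counts per gene symbol, 1 column per library. Build mm10 and the tools STAR, HTSeq, Trimmomatic and FastQC are named per the submitters' processing notes. For versions, annotation, strand setting and reads with several matches, nothing is given in the sources used here. Columns were matched to libraries by name. The members, the lists and the small step were chosen with earlier results of these data known.

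Counts were scaled to CPM with trimmed-mean factors (0.988 control, 1.01 Sparcl1) from edgeR 4.0.16 in R 4.3.3. Ratios, intervals and searches used Python 3.11.15 with scipy 1.17.1 and statsmodels 0.14.6, and were tested on simulated data. With 1 library per group no model could be fitted. Reads from amplified fragments that carry no molecular identifier may repeat a molecule, so intervals cover counting error only and may be too narrow. At least 20 summed counts were required. The table shows 26 symbols as dates, and 4 such entries with shared symbols were left out of the list summaries. Symbols of 99.6% of the table were matched to GENCODE M21 (GRCm38), the source of positions, exon lengths and transcripts. Levels per kb divide CPM by the union of annotated exons. All members are named. Of each pathway list, the 2 highest and 2 lowest ratios with at least 200 summed counts and any gene past 2-fold were named. Some of these are not reported here. Myh14 and Palld were added after their values were seen, as were the pairs of related genes. Identity of actins was computed from coding sequences, not from proteins as planned. Other scalings, filters and steps of size were tried.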

Additional observations from a re-analysis of the deposited data

How the results depend on the processing

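No member passed 2-fold under any scaling, count filter or set of members tried. The number lower by the small step was 5, and it was 4 with total counts as library sizes, 7 with trends on exon length and GC content removed (Csrp1, Myl9 and Srf added), and 5 with DESeq2 size factors or upper-quartile factors, no filter on counts or at least 100 summed counts. It was 3 with at least 2000 summed counts, and 3 without the 5 members with over 20% of their sequence overlapped or shared, both chosen after seeing the data, and 4 without Acta2, Actb, Actg1, Actg2, Myl6 and Tpm3, whose families have near-identical copies. That choice took out Acta2 by family, although only 0.352% of its 50-base windows occur in other genes. A step of 1.5-fold left 2 lower (Acta2 and Lmod1), and one of 1.1-fold gave 16 lower and 3 higher (Mylk, Tagln2 and Tpm3). Vcl was lost with total counts and with trends removed (-0.28). The median ran from -0.16 with trends removed to -0.08 with total counts, and the mean was -0.13. Over all genes the median was -0.0017 with trends removed and 0.033 with total counts, beside -0.0019 with the main scaling. Acta2, Lmod1, Tagln and Cnn1 were lower by the small step under each scaling and with trends removed. Synpo2 changed sign with DESeq2 size factors or upper-quartile factors, and Smtn and Mkl1 with trends removed, all near 0. With trends removed, the ratios of 18 members left their main counting interval and those of 18 stayed inside. Cald1 went from -0.26 to -0.15 and Myl9 from -0.24 to -0.40. With total counts 12 left it and 26 stayed inside. The counting intervals therefore do not cover the choice of processing. Over all genes, 5.97% were higher and 5.77% lower by the small step, or 7.67% and 4.60% with total counts. Depth limits Myh11, Des and Myocd, which had at most 30 summed counts each. No paired analysis was possible because each group had 1 library.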
